A study of Mus musculus with 24 samples.

Results

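The 9 genes described here encode ligands and receptors of vascular endothelial growth factor (VEGF) and angiopoietin signalling: the ligands *Vegfa*, *Vegfb*, *Vegfc*, *Angpt1* and *Angpt2*, the receptors *Flt1* and *Flt4*, and the co-receptors *Nrp1* and *Nrp2*. They were picked by gene symbol, with no measured value, from the 23420 genes listed in each of 4 expression tables of the postnatal mouse lung. All 9 were found in all 4 tables, and all 9 passed the filter on low values in each.

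VEGF ligands are secreted proteins that bind tyrosine kinase receptors on endothelial cells, the cells that line vessels. VEGF-A acts through KDR (VEGFR2) to drive the growth and survival of blood capillaries, FLT1 (VEGFR1) binds VEGF-A tightly and limits how much reaches KDR, and VEGF-C and VEGF-D act through FLT4 (VEGFR3) on lymphatic and some blood vessels. Neuropilins hold VEGF and semaphorin ligands next to their signalling receptors. Angiopoietin-1, from mesenchymal cells, activates the endothelial receptor TEK (TIE2) and steadies vessels, whereas angiopoietin-2, stored in endothelial cells, mostly opposes it. In the newborn lung the alveolar epithelium is a main source of VEGF-A, and capillaries grow into the septa that divide the air spaces.

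RNA from whole left lung lobes was sequenced in 24 mice, in 8 groups of 3. Mice with floxed alleles of *Vangl2*, a planar cell polarity gene, and Cre in the *Sox9* locus (titled *Sox9Cre*; *Vangl2f/f*, called *Vangl2* mutants) were compared with control mice at postnatal day 2 (P2) and day 5 (P5). Mice titled *Sox9Cre*; *Ror2f/f*, which carry floxed alleles of the *Wnt5a* receptor gene *Ror2* (*Ror2* mutants), were compared at the same ages with control mice of their own. The comparisons show whether the vascular signals of the lobe differed when either floxed gene was paired with *Sox9*-driven Cre. Controls were labelled WT and titled Control(Vangl1/2) or Control(*Ror2*), and the labels do not say whether they carried Cre. The genotype labels of the P2 *Ror2* mutants and the P5 *Vangl2* mutants name the other floxed gene, and titles were followed. *Sox9*-driven Cre acts in the distal lung epithelium and also in other tissues of the mouse, and which other cells of the lobe keep the floxed gene was not examined here. The lobes were sequenced whole, so that fewer cells of a type and less RNA per cell cannot be told apart. Each value is a normalized count, which is the number of reads on a gene divided by a size factor for that lung, set within a table of 6 lungs. Tables were normalized separately, and every test was made within a table or on differences from a table's own controls.

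Whole reads could be recovered in 21 lungs, which held 13823693 to 21546673 reads on genes. Control replicate 1 of the *Ror2* P5 table lacked reads from partway along chromosome 5 onwards: 602 of 842 well expressed genes of chromosome 5 and every such gene of chromosomes 6, 7, 8, 9 and X were listed at 0 there, against 2 of 8908 on the other autosomes. In that table, *Flt1* (chromosome 5), *Vegfc*, *Nrp1* and *Angpt2* (chromosome 8) were therefore measured in 2 control lungs and 3 mutant lungs. *Vangl2* was at 249, 302 and 281 normalized counts in its control lungs and 241, 224 and 173 in the mutants at P2 (adjusted p = 0.241, limma). At P5 it was at 369, 314 and 292 against 169.5, 148 and 166 (log2 fold change -1.003, adjusted p = 0.0604, and 0.0194 when same-numbered lungs were paired in a block). *Ror2* was at 451, 581 and 519.8 in the *Ror2* control lungs against 479, 349 and 366 in the mutants at P2, and at 526, 368 and 597 against 362, 439.7 and 521 at P5, and both pairs of groups overlapped (adjusted p = 0.250 and 0.691). In the *Vangl2* P5 table, where labels and titles conflict, *Ror2* was at 611, 478 and 487 in controls and 541, 351 and 273 in mutants (adjusted p = 0.348, limma). In the *Ror2* P2 table, where they also conflict, *Vangl2* was at 270, 291 and 245 against 208, 251 and 236 (adjusted p = 0.404, limma). Both of these pairs of groups overlapped, and which label is right was not tested. Sex, read from X-inactivation and Y-linked genes, was not balanced: mutant replicate 1 was the only male of the *Vangl2* P5 table, and all 3 *Ror2* P5 mutants were male beside 1 female, 1 male and 1 uncalled control. None of 24 pan-endothelial markers was at 0 in any lung of the *Vangl2* tables and the *Ror2* P2 table.

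None of the 9 genes passed the threshold, an adjusted p under 0.05 in limma over all genes tested, in any of the 4 comparisons. Of all genes tested, 3.59% passed at P2 and 0.563% at P5 in *Vangl2* mutants, 0% at P2 and 0.180% at P5 in *Ror2* mutants. Without adjustment, p was under 0.05 for 1 of the 9 genes in *Vangl2* P2 mutants (*Vegfc*), 3 in *Vangl2* P5 mutants (*Flt1*, *Flt4* and *Angpt2*), 4 in *Ror2* P2 mutants (*Vegfa*, *Vegfc*, *Flt1* and *Nrp1*) and 1 in *Ror2* P5 mutants (*Vegfa*), beside 22.5%, 18.8%, 19.3% and 18.5% of all genes tested. The highest differences were in the ligand genes *Vegfa* and *Vegfc*, above controls at P2 in both mutants, and the lowest were in *Angpt2* and the receptor gene *Flt4*, below controls in *Vangl2* P5 mutants. In the *Vangl2* P5 table same-numbered lungs deviated alike across genes, so the replicate number was taken to pair them. This pairing was read from these same data, and the labels do not state one. With the assumed pairing as a block, *Angpt2* and *Flt4* passed the threshold (2 of 9 genes, beside 3.48% of all genes called lower and 8.95% called in either direction). The median log2 fold change of the 9 genes was 0.14 at P2 and -0.27 at P5 in *Vangl2* mutants, and 0.27 and 0.074 in *Ror2* mutants, beside a median over all genes that lay within 0.01 of 0.

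Every mutant lung was above every control lung for 2, 0, 5 and 1 of the 9 genes in the *Vangl2* P2, *Vangl2* P5, *Ror2* P2 and *Ror2* P5 comparisons. Over all genes tested this held for 14.6%, 13.2% and 13.4%, and in the *Ror2* P5 table for 13.7% of genes with 6 lungs and 19.4% of genes with 5. The mutants all lay below the controls for 0, 2, 1 and 0 of the 9, beside 14.9%, 12.5% and 12.2% of all genes, and 12.4% and 18.3% in the *Ror2* P5 table. In *Ror2* P2 mutants the 5 genes were *Vegfa*, *Vegfc*, *Flt1*, *Flt4* and *Nrp1*. Such shares of 9 genes amount to about 1 gene, and the counts of 0 to 2 lie near that.

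**Figure D1:**
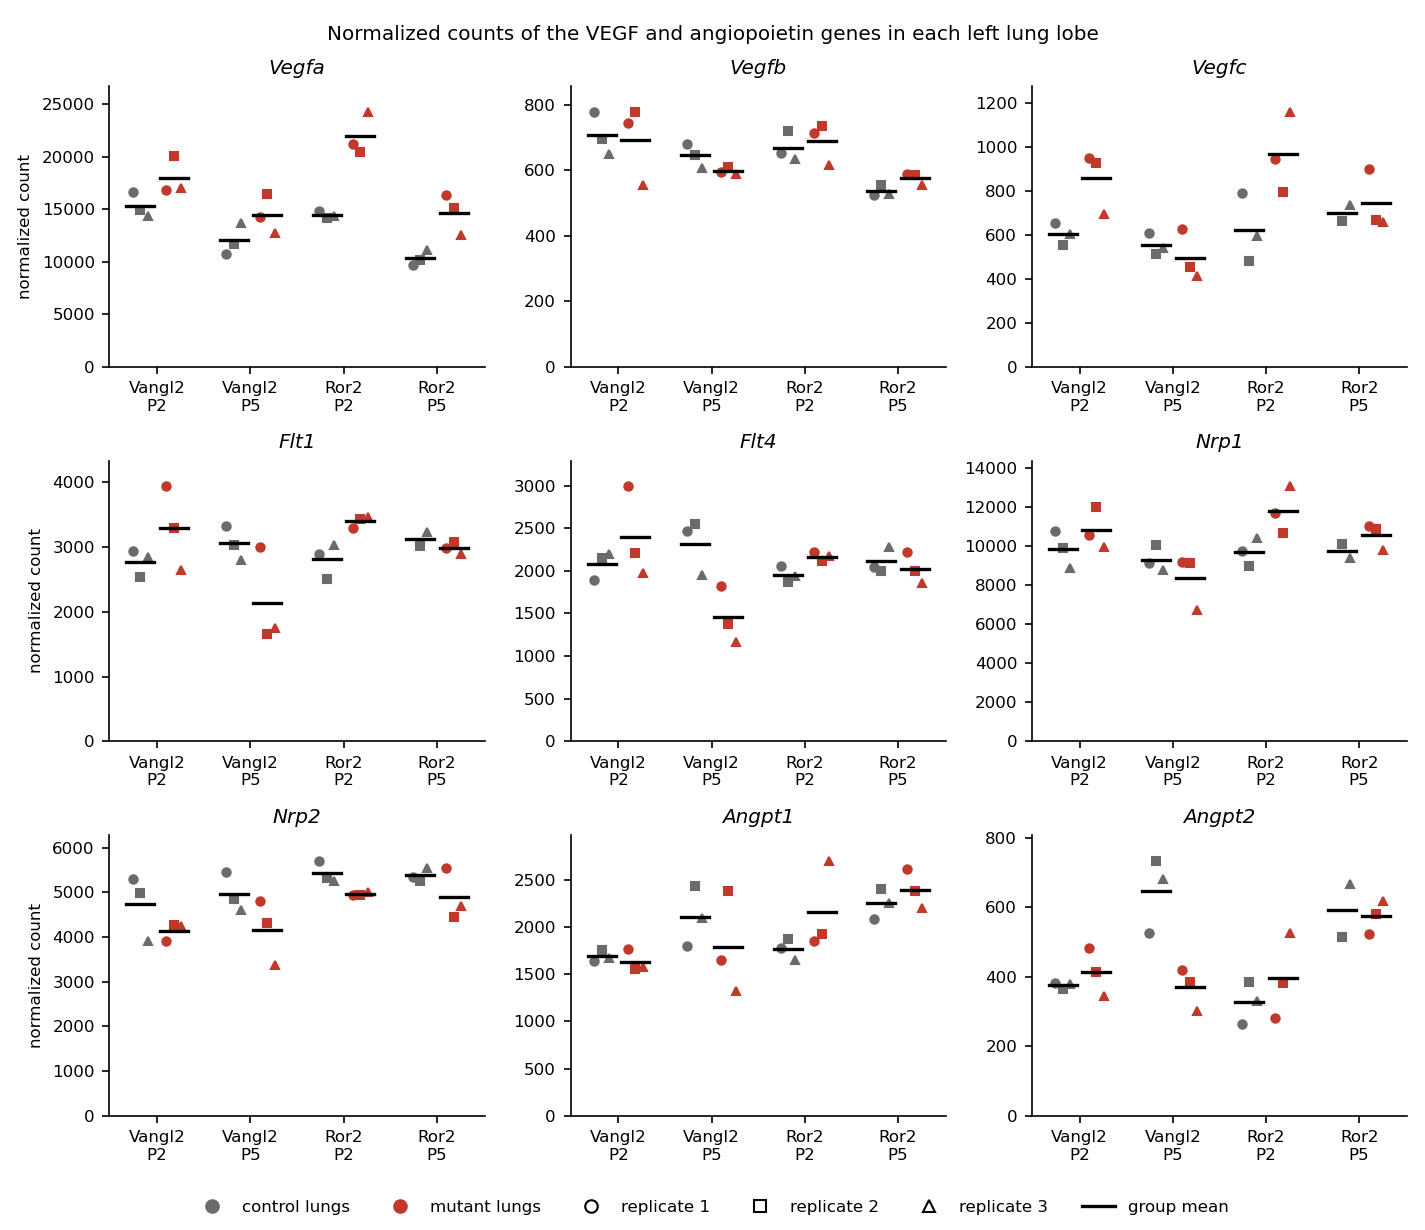
Normalized counts of each of the 9 genes (linear axes from 0) in every control lung (grey) and mutant lung (red) of the 4 comparisons, with a bar at the group mean and a marker shape for the replicate number; control replicate 1 of the *Ror2* P5 comparison is left out for *Vegfc*, *Flt1*, *Nrp1* and *Angpt2*. For *Vegfa* the *Ror2* P2 mutants sit at 21195, 20411 and 24287, above every control of that table, and the 3 *Vangl2* P5 mutants lie below their controls for *Flt4* and *Angpt2*.

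*Vegfa*, the main growth signal for blood capillaries, was higher in every mutant lung than in every control lung in 3 of the 4 comparisons. It lies at chr17:46016993-46032369 on the minus strand (GRCm38, GENCODE vM21). At P2 the *Ror2* controls had 14793, 14156 and 14341 normalized counts and the *Ror2* mutants 21195, 20411 and 24287. The lowest mutant lung stood well above the highest control, and the controls lay close together. Means were 14429.9 ± 327 (SD, n = 3) in controls and 21964 ± 2049 (SD, n = 3) in mutants, a log2 fold change of 0.60 (95% confidence interval 0.37 to 0.83), or 1.52-fold. Its adjusted p was 0.203 in limma, where no gene of that table passed the threshold although 3380 of 17541 genes had an unadjusted p under 0.05. On the recovered reads, edgeR's quasi-likelihood test also called 0 genes, while DESeq2 called 788 genes with *Vegfa* among them (adjusted p = 1.64e-06). *Vegfa* also passed in limma without mutant replicate 2 (adjusted p = 0.0376), and its adjusted p over all alternatives ran from 1.64e-06 to 0.530.

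At P5 the *Ror2* controls had 9692, 10172 and 11084 normalized counts of *Vegfa* and the mutants 16295, 15124 and 12542. The groups did not overlap, although mutant replicate 3 stood closer to the controls than the others. The log2 fold change was 0.50 (95% confidence interval 0.24 to 0.76, 1.41-fold) with an adjusted p of 0.117. Without mutant replicate 3, the lowest of the mutants, the adjusted p was 0.0235. With sex as a covariate the log2 fold change was 0.39. That fit left out control replicate 1, whose sex was not called, so the mutants, all male, were set against the only male control. It therefore cannot separate sex from the spread between control lungs.

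In *Vangl2* mutants the difference in *Vegfa* was smaller. At P2 the controls had 16661, 14956 and 14361 normalized counts and the mutants 16784, 20015 and 16992, and every mutant was above every control. At P5 the controls had 10718, 11690.3 and 13704 and the mutants 14223, 16450.2 and 12696, and the groups overlapped. The log2 fold changes were 0.22 (adjusted p = 0.311) and 0.26 (adjusted p = 0.491). Between the mutants, the *Vangl2* difference minus the *Ror2* difference was -0.38 at P2 (95% confidence interval -0.70 to -0.055, adjusted p = 0.946) and -0.24 at P5 (95% confidence interval -0.70 to 0.23, adjusted p = 0.998), so a difference between the mutants in *Vegfa* was not shown at either age.

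*Vegfc*, the ligand of FLT4 and a growth factor of lymphatic vessels, was higher in both mutants at P2 and near its controls at P5. It lies at chr8:54077606-54187096 on the plus strand. At P2, *Vangl2* controls had 655, 554 and 603 normalized counts and mutants 949, 928 and 695. *Ror2* controls had 791, 482 and 595 and *Ror2* mutants 943, 795 and 1162. In neither table did the groups overlap, though the gap between the highest *Ror2* control and the lowest mutant was only a few counts. The log2 fold changes were 0.49 (standard error 0.15, adjusted p = 0.108) in *Vangl2* mutants and 0.65 (standard error 0.21, adjusted p = 0.208) in *Ror2* mutants. DESeq2 called *Vegfc* in *Vangl2* P2 mutants (adjusted p = 0.0336), as did limma without mutant replicate 3 (0.0172), while edgeR did not (0.109). At P5, *Vangl2* controls had 609, 513 and 541 normalized counts and mutants 625, 452 and 412, and the 2 *Ror2* controls had 662 and 737 beside 901, 668 and 660.3 in mutants. Both P5 pairs of groups overlapped, with log2 fold changes of -0.18 (adjusted p = 0.657) and 0.074 (adjusted p = 0.820). From P2 to P5 the *Vangl2* difference moved by -0.67 (95% confidence interval -1.20 to -0.14), which did not pass adjustment (adjusted p = 0.577).

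*Vegfb*, a ligand of FLT1 linked to heart muscle and fatty acid uptake, differed little between mutants and controls. It lies at chr19:6982473-6987651 on the minus strand. Its lungs spanned 777, 695 and 648 normalized counts in *Vangl2* controls against 745, 779 and 555 in mutants at P2, and 679.7, 647 and 608 against 593, 610.0 and 589 at P5. In the *Ror2* tables they were at 652, 719 and 634 against 714, 736 and 615 at P2, and at 524, 555 and 526 against 588, 584 and 553 at P5. Control and mutant lungs overlapped in all 4 tables, in the *Ror2* P5 table by 1 mutant lung. Log2 fold changes lay between -0.11 and 0.10, with adjusted p from 0.492 to 0.901.

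Of the VEGF ligand genes outside the 9, *Figf*, the older symbol of *Vegfd*, gave the largest difference of the family, and it was lower in every mutant lung than in every control lung in all 4 comparisons. VEGF-D is the other ligand of FLT4 and is abundant in lung. In the *Vangl2* table at P2, controls had 2597, 3158 and 3751 normalized counts and mutants 1009.8, 989 and 1683. *Figf* fell 2.63-fold there (log2 fold change -1.40, standard error 0.22, adjusted p = 0.0312), beside 2.09% of all genes called lower. The call was lost without control replicate 1, 2 or 3 or mutant replicate 2 (adjusted p = 0.0508, 0.168, 0.140 and 0.0876). *Figf* lies on the X chromosome, and with sex as a covariate its adjusted p was 0.0453.

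The other 3 comparisons gave *Figf* the same sign without an adjusted call in limma as reported. DESeq2 called it in *Ror2* P2 mutants, as did limma without mutant replicate 2 (adjusted p from 0.00191 to 0.530 over all alternatives). In *Ror2* P5 mutants it passed in limma only without mutant replicate 3 (adjusted p = 0.0459, and up to 0.658 over all alternatives). At P5, *Vangl2* controls had 3808, 3149 and 3502 normalized counts and mutants 2428, 2013 and 677 (log2 fold change -1.22, adjusted p = 0.186, and 0.0591 with the replicate block). *Ror2* P2 controls had 3596, 3291 and 2714 and mutants 1355, 2181 and 1373 (log2 fold change -0.99, adjusted p = 0.203). The 2 *Ror2* P5 controls had 3052 and 3977 and the mutants 1449, 2046 and 2667 (log2 fold change -0.81, adjusted p = 0.177). Among these, the lowest lung was mutant replicate 3 of the *Vangl2* P5 table. Of 12 matrix fibroblast markers, genes of cells known to make lung VEGF-D, 1 fell in *Vangl2* P2 mutants (*Col1a1*) and 0 passed in the other 3 comparisons in limma (nor did any in *Vangl2* P5 mutants with the block), where 8, 5 and 2 had an unadjusted p under 0.05 (*Vangl2* P5, *Ror2* P2 and *Ror2* P5). Their log2 fold changes were below 0 for 8, 9, 11 and 9 of the 12 and above 0 for the others, in the order *Vangl2* P2, *Vangl2* P5, *Ror2* P2 and *Ror2* P5. Their summed level was 197025 to 214051 in *Vangl2* P2 controls against 137182 to 160922 in mutants, and 269652 to 296078 against 119862 to 193309 at P5. In *Ror2* lungs it was 204607 to 218402 against 121215 to 188612 at P2 and 285931 to 286429 in 2 controls against 178442 to 261984 at P5. These sums lay below controls in every mutant lung. Over the 9 markers measured in all 3 *Ror2* P5 controls the groups overlapped (209777 to 242601 against 151338 to 219682). Summed levels, here and below, give the most weight to the markers with the most reads. The part of the matrix fibroblast markers in the level of *Figf* was not tested.

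*Pgf* encodes placental growth factor, which binds FLT1. At P2, *Vangl2* controls had 142, 117 and 146 normalized counts and mutants 263, 159 and 172. At P5, *Ror2* controls had 121, 91.4 and 122 and mutants 177, 147 and 149. In both tables every mutant was above every control, with log2 fold changes of 0.52 (adjusted p = 0.231) and 0.50 (adjusted p = 0.203). In the *Vangl2* P5 and *Ror2* P2 tables the groups overlapped and the log2 fold changes were 0.33 (adjusted p = 0.578) and 0.46 (adjusted p = 0.321).

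**Figure D2:**
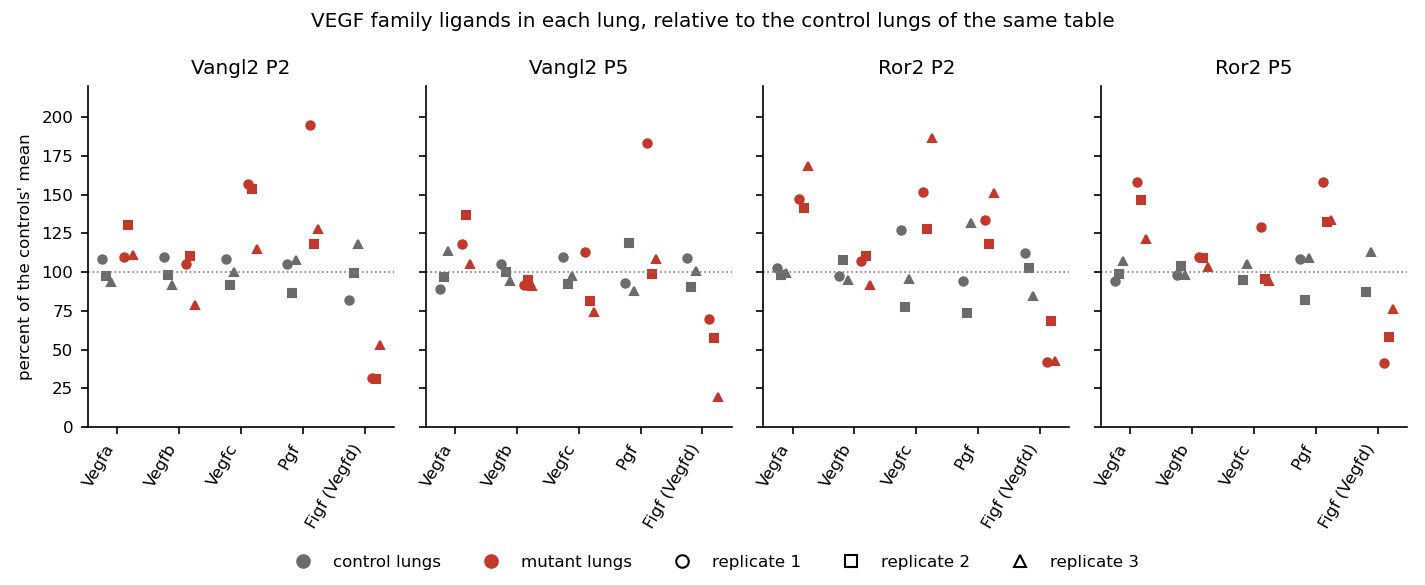
Each lung's level of 5 VEGF ligand genes as a percentage of the mean of its own control lungs (linear axis from 0), for the 4 comparisons; grey marks controls, red marks mutants, and marker shape gives the replicate number. *Vegfa* in *Ror2* P2 mutants sat at 147, 141 and 168% of the control mean, whereas *Figf* (*Vegfd*) in the same lungs sat at 42.3, 68.1 and 42.9%.

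The sequences upstream of *Vegfa*, *Vegfc* and *Vegfd* are shown because these 3 ligand genes carried the differences above, in opposite directions. They were read 5′ to 3′ on the gene's strand from RefSeq promoters of GRCm38.p6, and 7 of the 9 genes had an entry (*Angpt1* and *Angpt2* did not). Capitals mark GGGCGG or its reverse complement CCGCCC, the GC box that SP family factors bind. Both strands were searched for GGGCGG and, apart from it, for ACGTG and GCGTG, the letters at the core of hypoxia response elements.
Vegfa, chr17:46032378-46032627, minus strand: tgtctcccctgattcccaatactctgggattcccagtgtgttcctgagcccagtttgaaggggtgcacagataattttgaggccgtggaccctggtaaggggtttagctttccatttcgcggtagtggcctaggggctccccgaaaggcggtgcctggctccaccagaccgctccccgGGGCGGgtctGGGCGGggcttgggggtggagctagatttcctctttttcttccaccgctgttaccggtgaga
Vegfc, chr8:54077282-54077531, plus strand: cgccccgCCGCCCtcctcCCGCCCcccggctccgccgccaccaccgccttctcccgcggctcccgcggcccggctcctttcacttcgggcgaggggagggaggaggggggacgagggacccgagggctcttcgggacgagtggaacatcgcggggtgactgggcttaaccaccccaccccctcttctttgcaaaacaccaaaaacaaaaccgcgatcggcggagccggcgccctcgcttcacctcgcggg
Vegfd, chrX:164373272-164373377, plus strand: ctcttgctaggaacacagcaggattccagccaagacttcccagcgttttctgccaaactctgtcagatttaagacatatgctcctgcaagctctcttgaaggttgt
The *Vegfa* and *Vegfc* windows end at the base before the RefSeq start. The *Vegfd* window was cut short at the GENCODE start of the gene, so that it ends 145 bases before the RefSeq start and its letters cannot be set directly against the others. The *Vegfa* and *Vegfc* windows hold 2 GC boxes each and the shorter *Vegfd* window holds 0. Of 32851 promoter windows, 32.7% hold a GC box in 250 bases and 11.2% in the 106 bases shown for *Vegfd*. Neither ACGTG nor GCGTG is in any of the 3 windows (0 matches), while 16.6% and 28.2% of all windows of 250 bases hold them, and 6.40% and 11.7% of windows of 106 bases. These are matches of letters in the windows shown, not binding sites. Bases outside the windows were not searched, so the counts do not say whether the genes have such elements elsewhere.

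Of the 2 receptor genes among the 9, *Flt4* gave the larger difference. It encodes VEGFR3, the receptor of VEGF-C and VEGF-D, and lies at chr11:49609263-49652739 on the plus strand. In *Vangl2* P5 controls it had 2464, 2546 and 1953 normalized counts and in mutants 1822, 1378 and 1169. All 3 mutants were below all 3 controls. The means were 2321 ± 321 (SD, n = 3) and 1456 ± 334 (SD, n = 3), a log2 fold change of -0.69 (standard error 0.19), or 1.61-fold lower. The adjusted p was 0.127 without the replicate block and 0.0229 with it (standard error 0.12). Without mutant replicate 1, the only male, the log2 fold change was -0.86, and without mutant replicate 3 it was -0.54.

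In the other tables *Flt4* stayed near its controls. At P2, *Vangl2* controls had 1897, 2150.0 and 2199 normalized counts and mutants 2995, 2212 and 1977, where mutant replicate 1 stood above the rest (log2 fold change 0.18, adjusted p = 0.526). *Ror2* P2 controls had 2053, 1864 and 1941 and mutants 2217, 2113 and 2175, which did not overlap but lay close together (log2 fold change 0.15, adjusted p = 0.283). *Ror2* P5 controls had 2050.2, 1996 and 2284 and mutants 2224, 2003 and 1854, which overlapped (log2 fold change -0.059, adjusted p = 0.740). The *Vangl2* difference in *Flt4* minus the *Ror2* difference at P5 was -0.63 (95% confidence interval -1.11 to -0.14, adjusted p = 0.940), and the P5 minus the P2 difference in *Vangl2* mutants was -0.87 (95% confidence interval -1.44 to -0.30, adjusted p = 0.577).

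*Flt1*, which encodes the decoy-like receptor VEGFR1, lies at chr5:147561604-147726011 on the minus strand. *Vangl2* P5 controls had 3333, 3039.8 and 2809 normalized counts and mutants 3007, 1655 and 1754. Mutant replicates 2 and 3 were far below the controls while replicate 1 was among them. The log2 fold change was -0.57 (standard error 0.23, adjusted p = 0.233, and 0.0593 with the replicate block), and -0.84 without mutant replicate 1 (adjusted p = 0.0721). In the *Ror2* P2 table controls had 2891, 2508 and 3036 and mutants 3293, 3437 and 3459, with every mutant above every control (log2 fold change 0.28, adjusted p = 0.208). *Vangl2* P2 lungs overlapped at 2933, 2533 and 2845 against 3943, 3297 and 2643 (log2 fold change 0.23, adjusted p = 0.393). The 2 *Ror2* P5 controls had 3018 and 3232 beside 2991, 3083 and 2901 in mutants (log2 fold change -0.063, adjusted p = 0.672). From P2 to P5 the difference in *Flt1* moved by -0.80 in *Vangl2* mutants (95% confidence interval -1.44 to -0.16, adjusted p = 0.577) and by -0.34 in *Ror2* mutants (95% confidence interval -0.59 to -0.086, adjusted p = 0.452).

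*Kdr*, the main signalling receptor of VEGF-A and not one of the 9, followed *Flt1* in the *Vangl2* P5 table. *Kdr* stood at 11269.9, 10253 and 9323 normalized counts in the control lungs and 9481, 5301 and 4970.1 in the mutants, and mutant replicate 1 lay within the controls. The log2 fold change was -0.70 (standard error 0.25), with an adjusted p of 0.200 and 0.0453 with the replicate block. In *Ror2* P2 lungs it was 9445, 9252 and 8666 in controls and 10295, 11046 and 11458 in mutants, without overlap (log2 fold change 0.26, adjusted p = 0.206, and 0.0457 in DESeq2). The log2 fold change was -0.19 in *Vangl2* P2 mutants (adjusted p = 0.446) and 0.12 in *Ror2* P5 mutants (adjusted p = 0.569).

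The neuropilin genes had log2 fold changes between -0.27 and 0.28, and neither passed the threshold in any comparison. *Nrp1*, a co-receptor of VEGF-A on arteries and capillaries, lies at chr8:128358604-128503363 on the plus strand. *Ror2* P2 controls had 9723, 8975 and 10399.8 normalized counts and mutants 11674, 10648 and 13072, with every mutant above every control (log2 fold change 0.28, standard error 0.11, adjusted p = 0.231). In *Vangl2* lungs *Nrp1* was at 10766, 9909.8 and 8859 in controls and 10566, 11995 and 9973 in mutants at P2, and at 9121, 10055 and 8752 and 9179, 9148 and 6745 at P5. The 2 *Ror2* P5 controls had 10083 and 9382 and the mutants 11026, 10857 and 9808. These 3 pairs of groups overlapped, with log2 fold changes of 0.14, -0.17 and 0.12 (adjusted p = 0.518, 0.659 and 0.523).

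*Nrp2*, a co-receptor of VEGF-C on veins and lymphatic vessels, lies at chr1:62703285-62818695 on the plus strand and was the gene of the 9 with a log2 fold change below 0 in all 4 tables. *Ror2* P2 controls had 5711, 5324 and 5246 normalized counts and mutants 4949.6, 4935 and 5020.0, which did not overlap. The *Ror2* P2 mutants lay within a narrow band just below the lowest control. In the *Vangl2* tables the values were 5306, 4987 and 3923 against 3915, 4270.1 and 4255 at P2 and 5454, 4847 and 4607 against 4816, 4306 and 3380.4 at P5. *Ror2* P5 lungs had 5346, 5266 and 5554 in controls and 5536, 4451 and 4696 in mutants. The log2 fold changes were -0.18, -0.27, -0.13 and -0.14 in *Vangl2* P2, *Vangl2* P5, *Ror2* P2 and *Ror2* P5 mutants (adjusted p = 0.432, 0.435, 0.343 and 0.417).

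*Angpt2*, made by endothelial cells at sites of vessel remodelling, gave the largest negative log2 fold change of the 9 genes. It lies at chr8:18690263-18741562 on the minus strand. *Vangl2* P5 controls had 525, 735 and 683 normalized counts and mutants 421, 386 and 302. Every mutant was below every control, and the highest mutant was mutant replicate 1. The means were 648 ± 109 (SD, n = 3) and 369.6 ± 61.0 (SD, n = 3), a log2 fold change of -0.81 (95% confidence interval -1.25 to -0.36), or 1.75-fold lower. The adjusted p was 0.102 without the replicate block and 0.0389 with it. Without mutant replicate 3, the lowest, the log2 fold change was -0.67 (adjusted p = 0.228).

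The other tables showed no such difference in *Angpt2*. *Vangl2* P2 controls had 383, 366 and 380.2 normalized counts and mutants 484, 413 and 344 (log2 fold change 0.12, adjusted p = 0.670). *Ror2* P2 controls had 264, 386 and 332 and mutants 281, 381 and 526 (log2 fold change 0.24, adjusted p = 0.594). The 2 *Ror2* P5 controls had 515 and 668 and the mutants 524, 582 and 617 (log2 fold change -0.033, adjusted p = 0.917). Control and mutant lungs overlapped in each of these 3 tables. The difference in *Vangl2* mutants at P5 minus that at P2 was -0.93 (95% confidence interval -1.47 to -0.39, adjusted p = 0.577). At P5 the *Vangl2* difference minus the *Ror2* difference was -0.77 (95% confidence interval -1.34 to -0.21, adjusted p = 0.868). Both intervals leave out 0, and neither difference passed adjustment over all genes.

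*Angpt1*, the vessel-steadying ligand of TEK, lies at chr15:42424723-42676977 on the minus strand and overlapped between controls and mutants in all 4 tables. *Vangl2* lungs had 1642, 1757 and 1675 normalized counts in controls and 1763, 1549.9 and 1572 in mutants at P2, and 1795, 2431 and 2091 and 1646, 2386 and 1325 at P5. *Ror2* lungs had 1782, 1873 and 1653 and 1849, 1929.5 and 2702 at P2, and 2085, 2405 and 2258 and 2609, 2376 and 2204 at P5. At P2, *Ror2* mutant replicate 3 stood above the other 5 lungs, which it also did for *Vegfa*, *Vegfc*, *Nrp1* and *Angpt2*. The log2 fold changes of *Angpt1* lay between -0.27 and 0.27, with adjusted p from 0.345 to 0.751.

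The angiopoietin receptor genes *Tek* and *Tie1* were lower in *Vangl2* P5 mutants, as *Angpt2* was. *Tek* had 5487, 6079.7 and 5359 normalized counts in those controls and 4777, 4006 and 3344 in the mutants. *Tie1*, which encodes the partner of TEK, had 6609, 7212 and 6258 and 5199, 5055 and 3567. Neither gene overlapped between the groups. Their log2 fold changes were -0.49 (adjusted p = 0.173, 0.0572 with the replicate block) and -0.56 (adjusted p = 0.164, 0.0415 with the block). In *Ror2* P2 lungs *Tek* was at 5340.3, 4682 and 5064 in controls and 6443, 5698 and 7684 in mutants, also without overlap and in the other direction (log2 fold change 0.39, adjusted p = 0.206). At P2, log2 fold changes in *Vangl2* mutants were 0.11 for *Tek* and -0.12 for *Tie1* (adjusted p = 0.651 and 0.544). For *Tie1* they were 0.16 in *Ror2* P2 and -0.080 in *Ror2* P5 mutants (adjusted p = 0.479 and 0.559), and for *Tek* 0.14 in *Ror2* P5 mutants (adjusted p = 0.438).

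**Figure D3:**
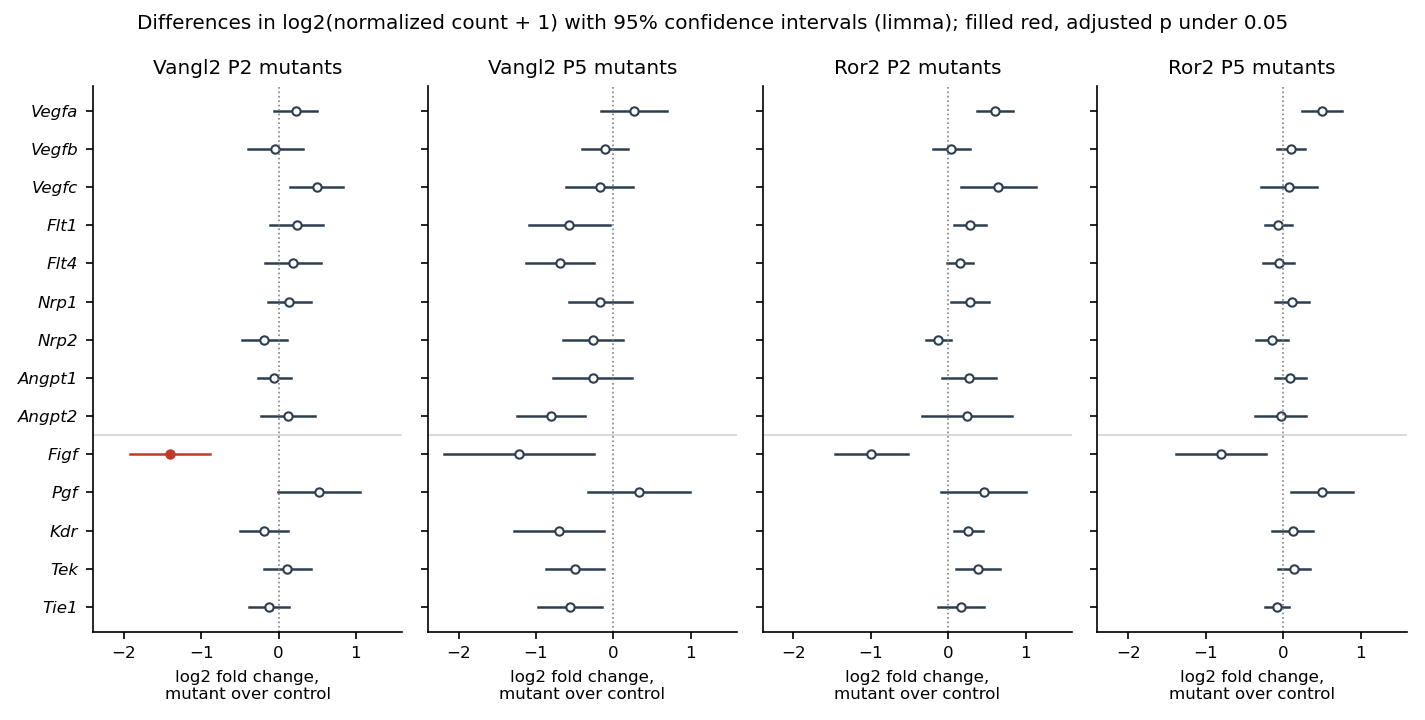
Log2 fold changes (mutant over control, on log2(normalized count + 1)) with 95% confidence intervals from limma for the 9 genes and, under the grey line, 5 related genes, in the 4 comparisons; a filled red point has an adjusted p under 0.05 without the replicate block. Only *Figf* in *Vangl2* P2 mutants is filled, at -1.40, and in *Vangl2* P5 mutants the intervals of *Flt1*, *Flt4*, *Angpt2*, *Figf*, *Kdr*, *Tek* and *Tie1* lie wholly below 0.

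All 24 pan-endothelial markers had a log2 fold change below 0 in *Vangl2* P5 mutants, with a median of -0.47, and 0 of 24 passed the threshold in limma without the block, 11 of them at an unadjusted p under 0.05 (6 passed with the block, all lower: *Eng*, *Erg*, *Esam*, *Kdr*, *S1pr1* and *Tie1*). Their summed level was 159562 to 172986 normalized counts in controls and 97880 to 149829 in mutants. Without *Kdr*, *Tek* and *Tie1*, the summed level of the other 21 markers in the *Vangl2* P5 mutants was 89.6, 70.5 and 59.1% of the control mean, beside 78.5, 59.4 and 50.4% for *Flt4* and 64.9, 59.6 and 46.6% for *Angpt2* in the same lungs. Mutant replicate 1 was the highest and mutant replicate 3 the lowest of the 3 for *Flt4*, *Angpt2* and these markers alike. In *Ror2* P2 mutants the 21 markers summed to 114, 99.9 and 128% of the control mean and 3 of 24 pan-endothelial markers had a log2 fold change below 0, with a median of 0.20. Pericyte markers, 11 genes of the mural cells that wrap capillaries, summed to 57447 to 60847 normalized counts in *Vangl2* P5 controls against 26857 to 46562 in mutants. Of these 11 genes, 8 had a log2 fold change below 0 there and 3 above, and 0 passed in limma without the block, 5 of them at an unadjusted p under 0.05 (4 passed with the block, all lower: *Cspg4*, *Gucy1a3*, *Notch3* and *Pdgfrb*). Their sum was also below controls in every mutant lung of the *Vangl2* P2 table (42260.5 to 46503 against 48693 to 49736) and the *Ror2* P5 table (42525 to 56559 against 62543 to 64437 in 2 controls), and it overlapped in the *Ror2* P2 table. Single pericyte markers did not fall alike in *Vangl2* P2 mutants, where 7 had a log2 fold change below 0 and 4 above (median -0.032). The 1 that passed there, *Abcc9*, was higher, and an unadjusted p was under 0.05 for 3 higher and 1 lower. In *Ror2* P5 mutants 0 passed, and such a p was found for 0 higher and 5 lower. The part of endothelial and pericyte markers in the differences of *Flt1*, *Flt4* and *Angpt2* was not tested.

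**Figure D4:**
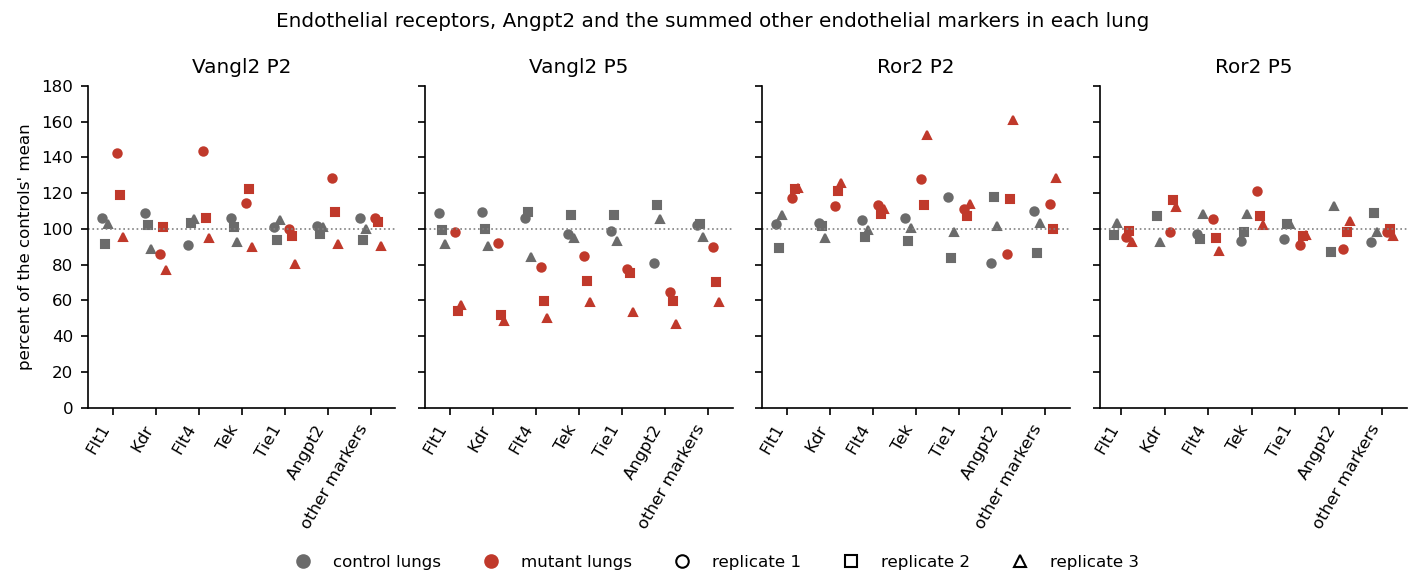
Each lung's level of 5 receptor genes, *Angpt2* and the sum of the other endothelial markers (21 genes, 17 in the *Ror2* P5 table) as a percentage of the mean of its own control lungs (linear axis from 0); colours and marker shapes are as for the ligands. In the *Vangl2* P5 panel the mutants' *Angpt2* sits at 64.9, 59.6 and 46.6% and the other markers at 89.6, 70.5 and 59.1%, while in the *Ror2* P5 panel the other markers sit at 98.2, 99.9 and 96.2%.

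Some epithelial and immune markers passed too, in counts that are given without the block unless it is named. Of 15 alveolar type I markers, epithelial cells known to make VEGF-A, 2 rose in *Vangl2* P2 mutants (*Hopx* and *Scnn1g*), and the median log2 fold change was 0.46 and 0.14 at P2 and P5 in *Vangl2* mutants and 0.48 and 0.071 in *Ror2* mutants. Of 11 alveolar type II markers, genes of the surfactant-making epithelium, 3 rose in *Vangl2* P2 mutants (*Sftpa1*, *Sftpd* and *Slc34a2*), and the medians were 0.40 and 0.48 in *Vangl2* and 0.28 and -0.18 in *Ror2* mutants. In the other 3 comparisons 0 of either list passed in limma, where 3 to 10 type I and 3 to 4 type II markers had an unadjusted p under 0.05. With the block in *Vangl2* P5 mutants, *Hopx*, *Scnn1g*, *Lyz2*, *Sftpa1* and *Sftpd* passed as higher and *Igfbp2* as lower. The part of these markers in the level of *Vegfa* was not tested.

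Of 8 neutrophil markers, 7 rose at P2 and 3 at P5 in *Vangl2* mutants (8 at P5 with the block), and 0 of 8 passed in either *Ror2* table, where 1 had an unadjusted p under 0.05 at each age. Of 7 macrophage markers, 1 rose in *Vangl2* P2 mutants (*C1qa*) and 0 passed in the other comparisons. With the block in *Vangl2* P5 mutants *C1qa*, *Cd68* and *Csf1r* passed as higher. An unadjusted p was under 0.05 for 5 and 6 of the 7 at P2 and P5 in *Vangl2* mutants, all higher. In *Ror2* mutants it was for 2 at P2, both lower, and 0 at P5. Of 8 proliferation genes, 8 fell in *Vangl2* P2 mutants, and their median was -1.78 there and -1.81 in *Ror2* P2 mutants, where 0 passed although all 8 had an unadjusted p under 0.05. Lymphatic endothelial markers, the cells on which VEGF-C acts, had medians of log2 fold change of 0.53 and 0.32 in *Vangl2* mutants at P2 and P5, and 0.28 and 0.21 in *Ror2* mutants. This list shares *Pdpn* with the alveolar type I list, and whether the lobes held more lymphatic cells was not tested. In limma 0 of these 7 passed in any comparison without the block, with 1 to 4 of them at an unadjusted p under 0.05, and 1 passed as higher with the block in *Vangl2* P5 mutants (*Fgl2*).

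The wider pathway showed few calls. Of 16 receptor partners and regulators, 1 fell in *Vangl2* P2 mutants: *Svep1*, an extracellular matrix protein that binds TIE1, was at 1747, 2198 and 2518 normalized counts in controls and 1279.6, 1338 and 1359.9 in mutants. Its groups did not overlap (log2 fold change -0.68, adjusted p = 0.0407), but the call was lost with sex as a covariate (0.0603) and without control replicate 2 or 3 or mutant replicate 1 or 2 (adjusted p up to 0.192). In *Vangl2* P5 mutants its log2 fold change was -1.04 (adjusted p = 0.145, 0.0257 with the replicate block). Of the 16 genes, 8, 14, 6 and 15 had a log2 fold change below 0 in *Vangl2* P2, *Vangl2* P5, *Ror2* P2 and *Ror2* P5 mutants. In the same order, an unadjusted p was under 0.05 for 3, 0, 3 and 0 higher and for 2, 4, 1 and 6 lower.

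Of 21 genes of the hypoxia response and of *Vegfa* transcription, 1 rose at each age in *Vangl2* mutants, beside 1.50% of all genes called higher at P2 and 0.534% at P5. At P2 this was *Adm*, which encodes the vasodilator peptide adrenomedullin, at 48.4, 68.3 and 96.7 normalized counts in controls and 457, 191 and 269.9 in mutants (log2 fold change 2.05, standard error 0.37, adjusted p = 0.0326). The *Adm* call was lost without control replicate 1, 2 or 3 or mutant replicate 2 (adjusted p up to 0.168). At P5 it was *Hif3a*, a hypoxia-inducible factor subunit, at 134, 199 and 159 in controls and 629, 599 and 724 in mutants (log2 fold change 1.99, standard error 0.19, adjusted p = 0.0141). The *Hif3a* call was lost without mutant replicate 1 or 3 (adjusted p = 0.0522 and 0.0627). Its log2 fold change was 2.13 in *Vangl2* P2, 1.71 in *Ror2* P2 and 1.12 in *Ror2* P5 mutants (adjusted p = 0.145, 0.215 and 0.201). The median over the 21 genes was 0.22 and 0.12 in *Vangl2* and 0.086 and -0.025 in *Ror2* mutants at P2 and P5, and 0 passed in either *Ror2* table. An unadjusted p was under 0.05 for 7 higher and 1 lower in *Vangl2* P2 and for 3 higher and 0 lower in *Vangl2* P5 mutants. In *Ror2* mutants it was for 2 higher and 2 lower at P2, and for 2 higher and 5 lower at P5.

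No gene of 4 further lists passed the threshold in limma without the block: angiopoietin-like ligands and *Angpt4* (0 of 7, and 0 of 6 in *Ror2* P5 mutants), class 3 semaphorins, which share neuropilins with VEGF (0 of 7), intracellular mediators of VEGF and TIE2 signalling (0 of 30), and endothelial VEGF response genes (0 of 22). Over the 4 comparisons, 2 to 3, 1 to 2, 3 to 6 and 5 to 12 genes of these lists had an unadjusted p under 0.05. Their lowest medians of log2 fold change were -0.66, -0.15, -0.12 and -0.60, each in *Vangl2* P5 mutants. Of the 22 response genes there, 11 had an unadjusted p under 0.05, of which 9 were lower, and with the replicate block 9 passed, all lower: *Apln*, *Aplnr*, *Egr1*, *Egr3*, *Kdr*, *Nid2*, *Notch4*, *Rcan1* and *Unc5b*. The response list is not separate from the results above, since it holds *Flt1* and *Kdr*, and *Kdr* is also a pan-endothelial marker. Over the 22 genes the median was 0.022 in *Vangl2* P2, 0.26 in *Ror2* P2 and -0.16 in *Ror2* P5 mutants. The block also called *Angptl2*, *Sema3g*, *Rasip1*, *Itga5* and *Svep1* lower and *Grb7*, *Bnip3*, *Hif3a* and *Slc2a1* higher in the same lungs, where 5.47% of all genes were called higher.

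Levels were compared between the genes in control lungs only, as normalized counts per kilobase of exon. Exon length was the union of all annotated exons of a gene, from 1605 bases for *Vegfb* to 13504 for *Flt1*. The order of the genes depends on this choice of length. *Vegfa* was the highest of the 9 in every table, at 3577 and 2809 in *Vangl2* and 3368 and 2408 in *Ror2* controls at P2 and P5. *Nrp1* came next, at 1006, 951, 991 and 995 in the same order, and its lungs overlapped with neither neighbour. *Angpt2* was lowest everywhere, at 102, 176, 88.7 and 160, below all lungs of the next gene. The other 6 genes lay close together, between 205 (*Flt1*) and 440 (*Vegfb*) in *Vangl2* P2 controls, and neighbours in the order often overlapped. *Vegfb* overlapped with *Nrp2* and *Nrp2* with *Angpt1* at P2 in *Vangl2* controls, *Nrp2* with *Angpt1* and *Angpt1* with *Vegfb* at P5, and *Flt4* with *Vegfc* at P2. Ages were not compared here because the P2 and P5 tables were normalized separately.

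**Figure D5:**
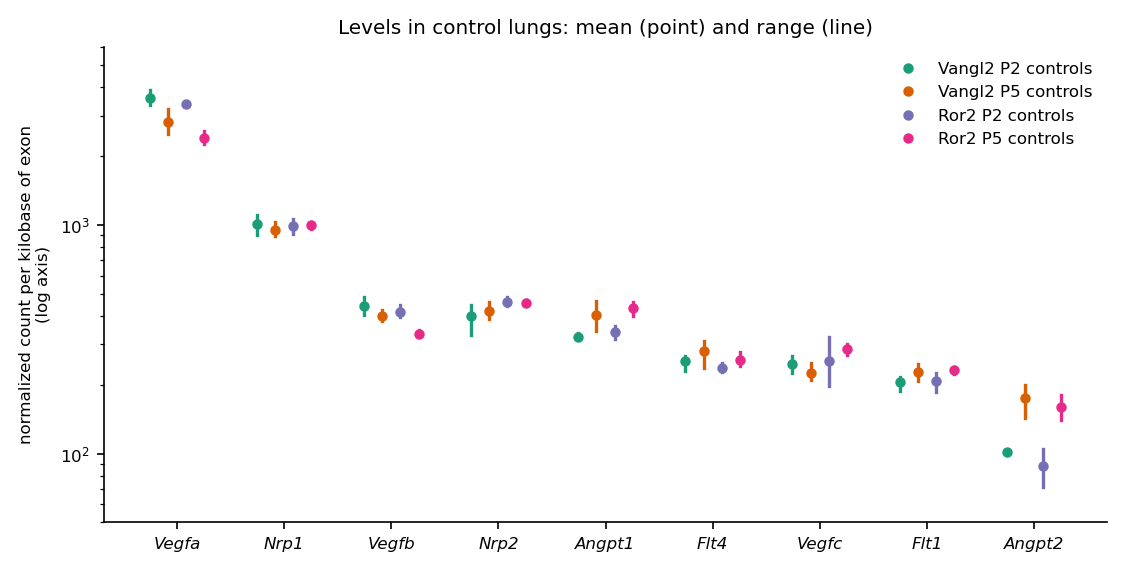
Mean (point) and range (line) of normalized counts per kilobase of exon in the control lungs of each table, on a log axis, for the 9 genes ordered by their level in *Vangl2* P2 controls. *Vegfa* stands at the top and *Angpt2*, at 102 in *Vangl2* P2 controls, at the bottom.

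The genes whose pattern was most like each of the 9 were found by Pearson's r over 23 or 24 lungs, after the mean of each table was subtracted, among 16722 genes tested in all tables. These r values are descriptions, since the lungs share tables, depth and genotype groups. The receptors lay close to each other and to endothelial genes: r was 0.87 between *Flt1* and *Flt4*, and 0.82 and 0.87 between *Flt4* and the endothelial junction genes *Cdh5* and *Pecam1*. The highest for *Flt1* were *4931406P16Rik* (0.90), *Cdc42bpb* (0.89) and *Prx* (0.89), and for *Flt4* *Tanc1* (0.91), *Cdc42bpb* (0.90) and *Piezo1* (0.90). *Vegfc* was closest to *Ptprb*, an endothelial phosphatase that acts on TEK (0.94), then *Tead4* (0.91) and *Map6* (0.89). *Nrp1* was closest to *Tjp1* (0.89), *Arrb1* (0.85) and *Atp2c1* (0.85), and its r with *Tek* was 0.85. For *Angpt2* the highest were *Prkar2a* (0.83), *Dnm3* (0.82) and *Sox5* (0.80), and its r with *Pecam1* was 0.70.

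The r of *Vegfa* with the endothelial genes *Cdh5*, *Pecam1*, *Flt4*, *Tie1*, *Kdr* and *Flt1* lay between -0.18 and 0.027, and with *Tek* it was 0.41. *Vegfa* was closest to *Nrbp2* (0.92), *2310015A10Rik* (0.91) and *Eif4a2* (0.90). Its r with *Figf* was -0.62 and with *Nrp1* 0.60. *Angpt1* was closest to *Ptrf*, a caveolar protein gene (0.94), *Yap1* (0.90) and *Fgd6* (0.84), and *Nrp2* to *Gpr89* (0.83), *Sncaip* (0.83) and *Fat4* (0.82). *Vegfb* was closest to *Zfp93* (0.83), *Myh13* (0.79) and *Gm16938* (0.77).

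Across mutants and ages, the differences themselves were tested over 12 lungs at a time. None of the 9 genes passed adjustment in any of the 4 tests, in which 0%, 0.0118%, 0% and 0% of all genes passed and 4.60%, 4.73%, 8.45% and 9.49% had an unadjusted p under 0.05 (*Vangl2* against *Ror2* at P2 and at P5, and P5 against P2 in *Vangl2* and in *Ror2* mutants). The P5 minus P2 difference in *Vangl2* mutants was lowest for *Angpt2* (-0.93), *Flt4* (-0.87), *Flt1* (-0.80) and *Vegfc* (-0.67). For *Figf* the *Vangl2* minus *Ror2* difference at P2 was -0.40 with a 95% confidence interval of -1.13 to 0.33, which spans 0. With 3 lungs against 3, an exact two-sided permutation test of a single gene cannot go below p = 0.1, and it gave that value for each of the 9 genes whose 6 lungs did not overlap.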

How the data were processed

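RNA was prepared by the authors from left lung lobes (TRIzol, RNeasy Mini Kit) and sequenced on Illumina HiSeq instruments. The aligner and read counter are not given in the sources used here, and the submitters' processing notes name DESeq2 and mm10 (GRCm38). The signal values the authors deposited are normalized counts, that is read numbers per gene scaled by the size factor of a lung, in 1 table of 23420 genes per comparison, without pooling. The tables also hold the authors' own fold changes, test statistics and p-values, which were not used, and 0 further columns hold values of single lungs.

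Gene differences were tested with limma 3.58.1 in R 4.3.3, with the functions lmFit and eBayes (trend) applied to log2(normalized count + 1). Genes entered when 3 or more of 6 lungs reached a normalized count of 1. Benjamini-Hochberg adjustment ran over every gene tested, and a gene was called at an adjusted p under 0.05. This scale understates changes of weakly expressed genes. A count test had been planned for raw counts, which the tables do not hold. Control replicate 1 of the *Ror2* P5 table was set to missing for 8292 genes (chromosomes 5 to 9 and X, and 213 genes on Y or without a single chromosome), which were fitted on 5 lungs. Whole reads, within 0.02, were recovered from the steps between values for 100% of values in 21 of 24 lungs. They were not in 3 control lungs (replicate 3 of *Vangl2* P5, replicates 2 and 3 of *Ror2* P5), so edgeR (version 4.0.16) and DESeq2 (version 1.42.0) were run on both P2 tables. Differences between comparisons were fitted over 12 lungs with each table's own controls. Single genes were also given an exact two-sided permutation test (SciPy version 1.17.1).

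Titles give the groups the same replicate numbers. In the *Vangl2* P5 table deviations of same-numbered control and mutant lungs from their group means correlated across genes (r = 0.38, 0.34 and 0.24), so the replicate number was taken to pair those lungs and blocked values are given beside results whose call it changed. The labels do not say whether lungs share litters, and p-values measure only the spread between these lungs. Within groups, r between lungs was 0.959 to 0.988, and 0 pairs were identical. Between 22.2% and 26.3% of genes were listed at 0, and 48.7% in *Ror2* P5 control replicate 1.

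All 9 genes were named whatever their values, as were *Figf*, *Pgf*, *Kdr*, *Tek* and *Tie1*, the deleted genes, the called genes of the pathway lists and the 3 genes with the highest r to each of the 9. The genes and lists were chosen with earlier results of these data known. Genes called under the replicate block alone, the called marker genes and pairs of genes with a stated r were picked after their values were seen. Positions and exon lengths come from GENCODE vM21, promoters from RefSeq. The fitting steps were tested on simulated data. Alternatives were the pseudocount, the filter, TMM and quantile scaling, robust limma, edgeR and DESeq2, the replicate block, sex as a covariate, each lung left out, and the *Ror2* P5 control lung as deposited.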

Additional observations from a re-analysis of the deposited data

How the results depend on the processing

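Of 585 values of the 9 genes under the alternatives, 563 kept their direction and side of the threshold, 7 passed it newly and 15 turned direction, the latter in 7 results whose log2 fold change was at most 0.17 in size. The number of the 9 genes called was 0 in every comparison as reported. It was 1 with DESeq2 in *Vangl2* P2 (*Vegfc*) and *Ror2* P2 mutants (*Vegfa*), and 2 with the replicate block in *Vangl2* P5 mutants (*Flt4* and *Angpt2*). Leaving out 1 lung gave 0 to 1 in *Vangl2* P2 (*Vegfc*, without mutant replicate 3), *Ror2* P2 (*Vegfa*, without mutant replicate 2) and *Ror2* P5 (*Vegfa*, without mutant replicate 3), and 0 elsewhere. Genes called over the whole tables ran from 1 to 2333 (626 as reported), 0 to 54 (98), 0 to 859 (0) and 0 to 897 (31) when 1 lung was left out of *Vangl2* P2, *Vangl2* P5, *Ror2* P2 and *Ror2* P5, and DESeq2 called 1998 in *Vangl2* P2 and 788 in *Ror2* P2. The block called 795, 1558, 1 and 1 genes. Outside *Vangl2* P5, r between same-numbered lungs was -0.094 to 0.21 and not every lung correlated best with its own number, so the numbers were not taken to pair the lungs, and the block changed no other call of the 9 genes. No count test was run on the P5 tables.

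Reversed log2 fold changes were small except those with the *Ror2* P5 control lung as deposited, which counts its missing reads as 0: 3.81 for *Flt1*, 3.03 for *Angpt2*, 3.12 for *Figf* and 2.15 for *Adm*, with the median of all genes at 0.18. Quantile normalization gave 0.0065 for *Nrp1* in *Vangl2* P5, 0.017 for *Flt1* in *Ror2* P5 and 0.029 for *Ror2* in *Vangl2* P2 mutants, where the sex covariate gave 0.018. In *Ror2* P5 mutants *Vegfc* was at -0.072 with the block and -0.0039 with the sex covariate, and *Angpt2* at 0.031 with the block. Leaving out 1 lung turned *Vegfb* (-0.13 to 0.11) and *Ror2* (-0.078 to 0.062) in *Vangl2* P2, *Adm* (-0.41 to 0.29) in *Vangl2* P5, *Vegfb* (-0.010 to 0.12) in *Ror2* P2, and *Vegfc* (-0.072 to 0.15), *Flt4* (-0.13 to 0.0028) and *Angpt2* (-0.22 to 0.15) in *Ror2* P5 mutants. The cause of these changes was not tested. The lowest value of the 9 genes in any lung was 264 normalized counts, and the 3 lungs a group limit the precision.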

Other observations

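Markers of endothelial subtypes, the cells that carry VEGF and angiopoietin receptors, gave 0 calls in limma without the replicate block in any of the 4 comparisons. *Car4* capillary (aerocyte) markers, 10 genes of the thin capillary cells that lie against alveolar type I cells and depend on VEGF-A, had a median log2 fold change of -0.037 and -0.28 in *Vangl2* mutants at P2 and P5, and 0.25 and -0.097 in *Ror2* mutants. General capillary markers, 9 genes, had medians of 0.099 and -0.29, and 0.27 and 0.074. Arterial and venous markers, 10 genes, had medians of 0.18 and -0.14, and 0.34 and 0.17. Unadjusted p was under 0.05 for 2 to 5, 0 to 3 and 1 to 4 genes of these lists. With the replicate block in *Vangl2* P5 mutants, *Apln*, *Aplnr* and *Kit* passed as lower and *Ptger4* as higher. *Apln* and *Aplnr* were already counted among the endothelial VEGF response genes. The medians of all 3 lists were below 0 in *Vangl2* P5 and above 0 in *Ror2* P2 mutants, beside a median of all genes within 0.01 of 0.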
